A study of Mus musculus with 6 samples.

Results

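The expression of 10 genes known from T-cell acute lymphoblastic leukemia (T-ALL) was followed in bone marrow (BM) cells of a mouse model of the disease. They are the oncogenes Tal1, Lyl1, Lmo1, Lmo2, Tlx1, Tlx3, Myc, Mycn and Myb and the tumor suppressor Fbxw7, picked by gene symbol out of 54532 genes in the deposited table. All 10 symbols were found once. RNA was sequenced in 6 libraries, of which 3 have the genotype label Phf6 WT (WT 1 to WT 3) and 3 the label Phf6 KO (KO 1 to KO 3). All 6 came from C57BL/6 mice at day 100 after transplantation, and by the series design all carried JAK3 M511I, an activated form of the Janus kinase JAK3. The genotype labels read Phf6, Phf7 and Phf8 in turn within each group, and were taken as Phf6 because the design text names that gene alone.

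In this model, per the study, loxP-flanked Phf6 was removed in blood cells with a Cre transgene driven by the Vav1 promoter, and the WT controls of that line carried the loxP-flanked gene without Cre. The labels name no Cre line. JAK3 M511I was delivered with GFP by a retrovirus into lineage-negative cells, which were transplanted into male recipients, so cells of the host may also be present. The labels give the material as BM cells, and a sort for leukemic cells is not stated in them. Fewer cells of a type and less RNA per cell cannot be told apart in such bulk samples. Nothing in the labels says that the 3 libraries of a group came from separate animals, so p-values measure the spread between these libraries, which may be technical.

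T-ALL oncogenes are usually transcription factors that are switched on in the wrong cell or kept on too long. TAL1 and LYL1 are basic helix-loop-helix (bHLH) proteins of blood stem cells and of the erythroid, megakaryocytic and mast cell lines. They pair with E proteins on the E-box motif and are tied by LMO proteins and LDB1 to GATA factors. TLX1 and TLX3 are homeobox proteins that normal blood cells lack, MYC drives cell growth downstream of NOTCH1, and MYB is needed by early thymocytes. FBXW7 is the substrate-binding F-box protein of an SCF ubiquitin ligase that marks MYC, NOTCH1 and other proteins for degradation.

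The stretch of 250 bases before the annotated start is shown for 3 of these genes, since Tal1 and Lyl1 belong to the complex that reads E-box and GATA motifs and Myb was the 1 gene of the 10 called higher with all 6 libraries. The sequences are those of RefSeq on GRCm38.p6, read 5′ to 3′ along the strand of the gene. Capitals mark CANNTG (E-box) and GATAA (GATA motif, which reads TTATC on the other strand).
Tal1, chr4:115056176-115056425, plus strand: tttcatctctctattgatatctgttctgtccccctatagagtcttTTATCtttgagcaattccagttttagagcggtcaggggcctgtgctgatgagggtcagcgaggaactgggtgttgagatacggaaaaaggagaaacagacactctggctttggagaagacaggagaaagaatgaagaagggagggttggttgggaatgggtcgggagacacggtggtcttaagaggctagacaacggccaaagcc
Lyl1, chr8:84701207-84701456, plus strand: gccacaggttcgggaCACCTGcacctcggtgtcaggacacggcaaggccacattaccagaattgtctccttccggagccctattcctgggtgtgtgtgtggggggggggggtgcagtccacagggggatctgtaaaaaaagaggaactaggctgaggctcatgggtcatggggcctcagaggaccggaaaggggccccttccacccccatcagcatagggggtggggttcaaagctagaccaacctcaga
Myb, chr10:21160985-21161234, minus strand: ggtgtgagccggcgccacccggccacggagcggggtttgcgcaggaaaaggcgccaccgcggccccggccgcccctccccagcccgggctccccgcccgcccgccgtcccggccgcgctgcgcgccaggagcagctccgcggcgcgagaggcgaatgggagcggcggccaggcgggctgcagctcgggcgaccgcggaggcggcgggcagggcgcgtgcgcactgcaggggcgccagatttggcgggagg
The Tal1 window shown held 1 GATAA on the opposite strand, 205 bases before the start, and no CANNTG. Tal1 had a second window, chr4:115057561-115057810, which held neither motif. The Lyl1 window held 1 CANNTG with the letters CACCTG, 235 bases before the start, and lies within Nfix, a gene of the minus strand. The Myb window held neither motif and had 40 CpG dinucleotides, more than 98.69% of all promoter windows of this length, whose median was 6. RefSeq windows were given for 8 of the 10 genes, 12 windows in all. CANNTG was found in 6 of these 12 and in 66.2% of all 32851 windows, and GATAA on either strand in 2 of 12 and in 22.6%. The letters TTCNNNGAA, to which STAT proteins bind, were found in 1 of 12 windows and in 7.02% of all. CACGTG, the E-box form read by MYC and itself a CANNTG, was found in 0 of 12 and in 6.02% of all.

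Values are FPKM, fragments scaled to gene length and to a size per library (FPKM size), so that levels can be set side by side between genes. A gene was tested by limma on log2(FPKM + 1) where 3 or more libraries reached 1 FPKM, and a log2 fold change below is the mean of the KO-labelled minus that of the WT-labelled libraries on this scale. Of the 10 genes, 6 passed this filter. Among the 4 others, Tal1 had reads in every library, Mycn in 5 libraries, and Tlx1 and Tlx3 had none. A gene high under a single label can pass the filter, and its test is then not independent of the filter. Among genes named below, Lmo2, Spi1, Hhex, Erg, Fbxw8, Cebpa and Cebpd passed through the WT-labelled libraries alone. Notch3, Ptcra, Tert and Gm26577 passed through the KO-labelled libraries alone. By limma, with a threshold of 0.05 on the adjusted p, 1 of the 6 tested (Myb) was higher and 1 (Lmo2) was lower under the KO label. Over all 13393 genes tested, 13.1% were called higher and 13.3% lower, so the 2 of 6 called stood beside 26.4% of genes in either direction. The groups did not overlap in 4 of the 6, beside 49.1% of all genes tested, with 2 higher (26.2% of all) and 2 lower (22.9%). Without WT 2, 3 of the 6 were called beside 52% of all genes, and with array weights, which give WT 2 little weight, 5 of 6 beside 63.2%. Leaving out WT 1 or WT 3 gave 19.6% and 23.5% over all genes, and leaving out KO 1, KO 2 or KO 3 gave 15.5%, 14.4% and 15.1%.

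Libraries held 13015823 to 18235095 recovered reads (fragments, computed from FPKM and gene length). The FPKM size was not this total. Recovered reads were 1.55 times the FPKM size in WT 2 and 0.827 to 0.994 times in the other 5 libraries. WT 2 stood apart from the other 5: 17.1% of its reads lay in genes shorter than 1000 bases, compared with 3.11% to 5.01%, and its correlation across genes with WT 1 and WT 3 was 0.779 and 0.746, while WT 1 and WT 3 gave 0.948 with each other. Phf6 itself did not separate the labels by its RNA level (log2 fold change -0.073, SE 0.33, limma, adjusted p = 0.893; 0.69 after rescaling to TPM). Per the study, the loxP sites flank only some exons of Phf6, and a value per gene does not show the loss of a part. The study also measured Phf6 RNA and protein in leukemia cells of both genotypes. Here directions rest on the labels.

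**Figure D1:**
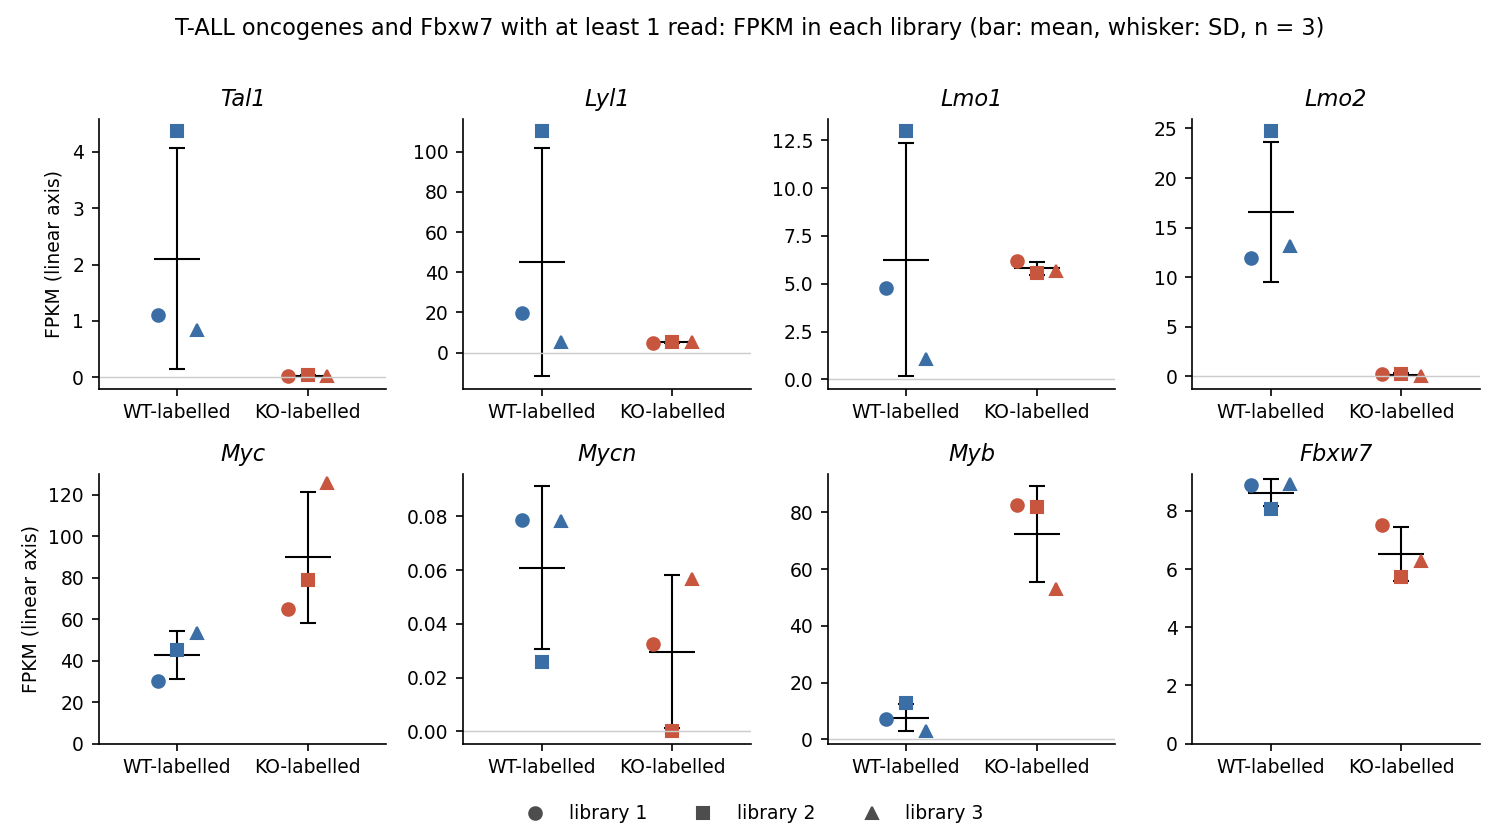
FPKM (linear axis, a separate scale for each gene) of the 8 genes with at least 1 read, in the WT-labelled (blue) and KO-labelled (red) libraries. Points are libraries with the shape giving the library number, bars are means and whiskers are SD (n = 3). WT 2 was the highest library for Tal1, Lyl1, Lmo1 and Lmo2, and all KO-labelled libraries were above all WT-labelled ones for Myc and Myb.

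The stem cell bHLH genes were low or close to undetected in the KO-labelled libraries, and their levels in the WT-labelled libraries were uneven. Tal1 (ENSMUSG00000028717, chr4:115056426-115071755, plus strand), the founding bHLH oncogene of T-ALL, reached 1.11 FPKM in WT 1, 4.37 in WT 2 and 0.840 in WT 3, from 75, 225 and 57 reads. Its values were 0.0245 in KO 1, 0.0435 in KO 2 and 0.0142 in KO 3, from 2, 3 and 1 reads, at or below the floor of 3 reads in each of these libraries. Each WT-labelled library thus lay above each KO-labelled one, and WT 2 held most of the reads. Relative to the FPKM size, the WT-labelled libraries had 70.3 times as many Tal1 reads (exact 95% interval 32.0 to 193, counting error only). The difference in mean log2(FPKM + 1) was -1.42, and -0.94 without WT 2. Tal1 was under the filter because only WT 1 and WT 2 reached an FPKM of 1. With a filter of at least 10 reads in 3 libraries, chosen after seeing the data, limma voom gave a log2 fold change of -5.58 (SE 0.94, adjusted p = 0.00552), and -4.92 without WT 2 (adjusted p = 0.000697). Tal1 met that filter through the WT-labelled libraries alone, so these tests are not independent of it. By that filter 28.2% of genes were called with all libraries and 52.5% without WT 2. With no filter on low values it gave -1.42 on the log2(FPKM + 1) scale (limma, adjusted p = 0.0890).

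Lyl1 (ENSMUSG00000034041, chr8:84701457-84704715, plus strand), the close relative of Tal1, reached 19.8 FPKM in WT 1, 110.3 in WT 2 and 5.16 in WT 3. Its values were 4.95 in KO 1, 5.43 in KO 2 and 5.35 in KO 3. WT 2 and WT 1 were above every other library, whereas WT 3 lay among the KO-labelled libraries, so that the groups overlapped. Within the WT label the highest value was 21.4 times the lowest, compared with 1.10 times within the KO label. The mean was 45.1 ± 56.9 under the WT label and 5.24 ± 0.258 under the KO label (SD, n = 3), and the log2 fold change of -1.96 (SE 0.97, 95% interval -4.29 to 0.37) did not pass the test (limma, adjusted p = 0.195). It passed in 2 of 19 alternatives, the fit that left out WT 3 (-2.95, limma, adjusted p = 0.0340) and that by array weights (-1.52, adjusted p = 0.00614). Without WT 2 it was -0.86 (limma, adjusted p = 0.184). Lyl1 lies inside the minus-strand gene Nfix, whose FPKM was 0.658 to 2.37 under the WT label and 0.161 to 0.237 under the KO label. The use of strand in counting is not given in the sources used here.

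The LIM-only genes, whose products bridge TAL1 or LYL1 to GATA factors, differed from each other. Lmo2 (ENSMUSG00000032698, chr2:103957986-103981878, plus strand) reached 11.9 FPKM in WT 1, 24.7 in WT 2 and 13.1 in WT 3. It had 0.297 and 0.264 in KO 1 and KO 2, from 12 and 9 reads, and no read in KO 3, where 3 reads would be 0.0860. Every WT-labelled library was far above every KO-labelled one, and Lmo2 passed the filter through the WT-labelled libraries alone. Lmo2 fell by 3.83 on the log2 scale (SE 0.33, limma, adjusted p = 0.000656). Its reads were 82.6 times as many in the WT-labelled libraries relative to the FPKM size (exact 95% interval 53.9 to 134, counting error only). The call held in 19 of 19 alternatives, with an adjusted p between 1.42e-06 and 0.00661. Median-of-ratios scaling, among these, in effect repeats the main fit, since its factor was the same in all libraries. Without WT 2 the log2 fold change was -3.52. All 12 neutrophil markers fell beside Lmo2 (13.3% of all genes were lower), and their part in its fall was not tested. The minus-strand gene 4931422A03Rik overlaps Lmo2 and was at 0.20 on the same scale (limma, adjusted p = 0.784).

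Lmo1 (ENSMUSG00000036111, chr7:109138572-109175207, minus strand), the relative that is normally a gene of the nervous system and is turned on by translocation in T-ALL, reached 4.76 FPKM in WT 1, 12.99 in WT 2 and 1.04 in WT 3. Its values were 6.19 in KO 1, 5.57 in KO 2 and 5.68 in KO 3. The KO-labelled libraries were close together and lay between the WT-labelled ones, with WT 2 above them and WT 1 and WT 3 below. The log2 fold change was 0.31 (SE 0.66, 95% interval -1.28 to 1.91, limma, adjusted p = 0.770). By limma it was 0.99 without WT 2 (adjusted p = 0.0968) and turned to -0.40 without WT 3 (adjusted p = 0.531), so neither a rise nor a fall was shown. Its reads were 376 under the WT label and 457 under the KO label, a ratio of 0.973 relative to the FPKM size (exact 95% interval 0.846 to 1.12, counting error only). That interval leaves out the spread between libraries. A ratio relative to recovered reads was not computed.

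Of the partners and relatives of TAL1 and LMO proteins, 15 of 19 passed the filter, and 3 were higher and 0 lower under the KO label (13.1% and 13.3% over all genes), with a median log2 fold change of 0.51 beside 0.086 over all genes. At an unadjusted p under 0.05 the limma counts were 5 and 0, beside 37.5% of all genes, 19.4% higher and 18.1% lower. With voom on the recovered reads they were 3 and 0, beside 12.1% and 13.2%. Without WT 2 they were 10 and 0, beside 26.8% and 25.3%. With 1 of the other libraries left out they were 3 and 0 each time, beside 7% to 11.1% and 7.44% to 12.4%. Tcf12, which encodes the E protein HEB that pairs with TAL1, rose by 3.19 (SE 0.58, limma, adjusted p = 0.00922), with an FPKM of 62.3 to 70.8 under the KO label and 1.81 to 11.9 under the WT label. Ssbp2 and Ssbp3, whose products stabilize LDB1, rose by 1.70 and 1.78. The bridging factor gene Ldb1 did not pass the test (log2 fold change -0.12, limma, adjusted p = 0.831), nor did the E protein gene Tcf3 (0.37, adjusted p = 0.490).
The GATA genes were at unlike levels: Gata3, the T-cell member, had an FPKM of 8.26 to 10.9 under the WT label and 9.21 to 12.9 under the KO label (log2 fold change 0.14, limma, adjusted p = 0.721). Gata2, the stem and mast cell member, had 0.765 to 15.8 under the WT label and at most 0.0597 under the KO label, and was under the filter. Gata1 had 0.345 in WT 1, 11.1 in WT 2 and 0.318 in WT 3, and 1.35 to 2.98 under the KO label. Its log2 fold change was 0.067 (limma, adjusted p = 0.965). Id1, an inhibitor that holds E proteins off DNA, had a log2 fold change of 2.28 that did not pass (limma, adjusted p = 0.0776). The LMO relative gene Lmo3 and the LDB1 relative gene Ldb2 were listed at 0 in all 6 libraries.

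**Figure D2:**
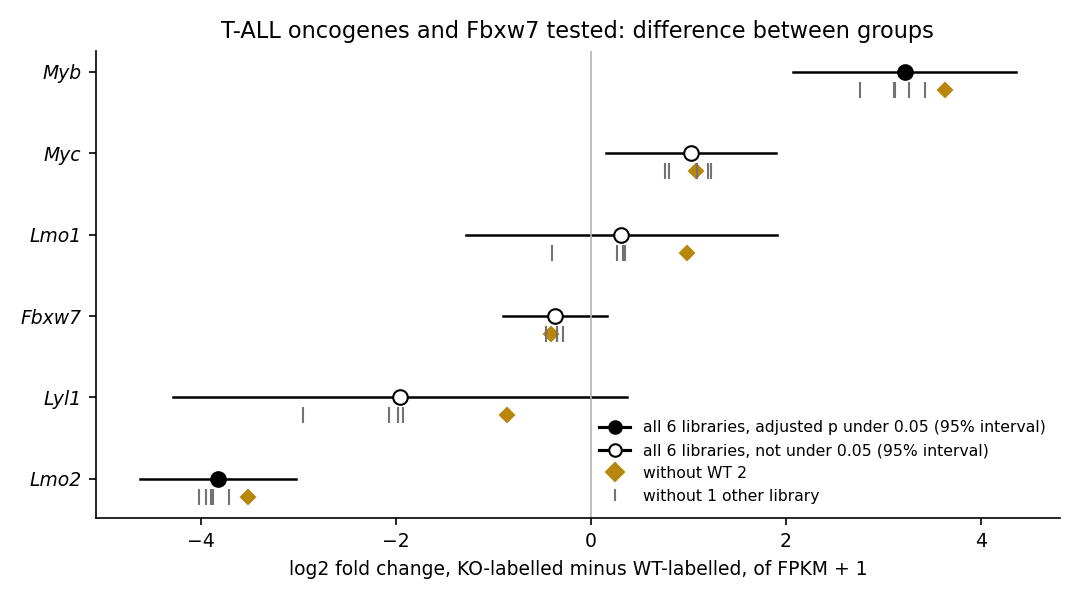
Log2 fold change of FPKM + 1, KO-labelled minus WT-labelled, for the 6 genes tested. Circles are the fit to all 6 libraries with the 95% interval as a line (filled: adjusted p under 0.05), diamonds are the value without WT 2 and ticks the value without 1 of the other libraries. Myb and Lmo2 are filled, and Lyl1 and Lmo1 spread most when 1 library is left out, from -2.95 to -0.86 and from -0.40 to 0.99.

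The homeobox oncogenes were not detected. Tlx1 (ENSMUSG00000025215, chr19:45150680-45156943, plus strand) and Tlx3 (ENSMUSG00000040610, chr11:33200752-33203589, minus strand), both of them ectopically expressed in human T-ALL after translocation, had 0 reads in all 6 libraries. A count of 0 allows up to 3 reads, which corresponds to an FPKM of 0.0753 to 0.119 for Tlx1 and of 0.105 to 0.166 for Tlx3, depending on the library. The antisense gene Tlx1os, which overlaps Tlx1, was also listed at 0. No difference between the groups could be looked for.

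Among other transcription factors known as T-ALL drivers, 7 of 16 passed the filter, of which 1 was higher and 3 were lower under the KO label (13.1% and 13.3% over all genes), and the median log2 fold change was 0.28. Without KO 1, KO 2 or KO 3 the counts were 0 and 2 each time, beside 7% to 7.38% and 7.44% to 8.08% over all genes. Without WT 2 they were 2 and 3, beside 26.8% and 25.3%. Those lower are known for their roles in stem, myeloid and B cells. Spi1, the gene of the myeloid factor PU.1, fell by 5.30 (SE 0.83, limma, adjusted p = 0.00511), Hhex by 2.98 and Erg by 1.72, of which Erg lost its call whichever KO-labelled library was left out (adjusted p up to 0.0702). All 3 passed the filter through the WT-labelled libraries alone. Spi1 reached 67.7 FPKM in WT 1, 159.5 in WT 2 and 13.3 in WT 3, and 0.323 to 0.448 in the KO-labelled libraries. Bcl11b, which commits cells to the T lineage, rose by 1.48 (SE 0.33, limma, adjusted p = 0.0191), with an FPKM of 34.4 to 41.6 under the KO label and 7.89 to 17.4 under the WT label. Bcl11b lost its call whichever KO-labelled library was left out (limma, adjusted p up to 0.0821). The T-cell factor genes Tcf7 and Lef1 had log2 fold changes of 1.35 and 0.38 that did not pass (limma, adjusted p = 0.0962 and 0.378). The homeobox and bHLH genes Nkx2-1, Nkx2-2, Nkx2-5 and Olig2 were listed at 0 in all libraries, as Tlx1 and Tlx3 were.

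Myc was abundant under both labels and was higher in each KO-labelled library, without passing the test. Myc (ENSMUSG00000022346, chr15:61985391-61990374, plus strand) reached 30.4 FPKM in WT 1, 45.1 in WT 2 and 53.3 in WT 3. Its values were 64.8 in KO 1, 79.1 in KO 2 and 126 in KO 3. The groups did not overlap, the lowest KO-labelled library being KO 1 and the highest WT-labelled one WT 3, and KO 3 was well above the other 5. The mean was 42.9 ± 11.6 under the WT label and 89.8 ± 31.7 under the KO label (SD, n = 3), 2.09 times as high. The log2 fold change was 1.03 (SE 0.36, 95% interval 0.16 to 1.90) with an unadjusted limma p of 0.0267, and the adjusted p was 0.0838. It passed in 5 of 19 alternatives, and the adjusted p ranged from 0.00207 to 0.263. The 5 were without WT 2 (1.08, limma, adjusted p = 0.0434), with array weights (1.38, adjusted p = 0.00207), with voom at 10 reads without WT 2 (1.10, adjusted p = 0.0334), after quantile normalization (1.53, adjusted p = 0.0185) and after rescaling to TPM (1.87, adjusted p = 0.0375; 1.02 above the median of all genes on that scale).

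Mycn (ENSMUSG00000037169, chr12:12936093-12941914, minus strand), the neural relative of Myc, was close to undetected. Its reads numbered 4 in WT 1, 1 in WT 2, 4 in WT 3, 2 in KO 1, 0 in KO 2 and 3 in KO 3, which is an FPKM of at most 0.0786. The groups overlapped. The ratio of reads relative to the FPKM size, WT-labelled over KO-labelled, was 2.13 with an exact 95% interval of 0.640 to 8.08 (counting error only), so no difference was detectable at this depth. By FPKM, Myc exceeded Mycn by far in every library.

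Among the partners and antagonists of MYC, 9 of 11 genes passed the filter, and 1 was higher and 1 lower, beside 13.1% and 13.3% over all genes, with a median log2 fold change of -0.012. Without WT 2 the counts were 2 and 3, beside 26.8% and 25.3%. Mxd1, an antagonist that rises in maturing myeloid cells, fell by 2.86 (SE 0.48, limma, adjusted p = 0.00656), from an FPKM of 25.2 to 88.5 in the WT-labelled to 3.92 to 6.54 in the KO-labelled libraries. Its relative Mxd4 rose by 1.61 (limma, adjusted p = 0.00710). Max, the obligate partner of MYC, was at -0.25 (limma, adjusted p = 0.485), and the glucose-sensing relative Mlxip at -0.69 (adjusted p = 0.352), which turned to 0.12 after rescaling to TPM.

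Of 30 MYC target genes, all 30 passed the filter, 3 were higher and 1 was lower, beside 13.1% and 13.3% over all genes, and the median log2 fold change was 0.13 beside 0.086 over all genes. Tert (telomerase) rose by 1.89, Tfrc (transferrin receptor) by 1.24 and Apex1 (DNA repair) by 1.07. Ccnd2, the gene of cyclin D2, fell by 3.49 (SE 0.44, limma, adjusted p = 0.00243), with an FPKM of 15.9 to 46.9 under the WT label and 1.52 to 2.26 under the KO label. The other 26 did not pass. Nucleolar and ribosome assembly targets were among these, such as Ncl with 0.39 (adjusted p = 0.378), Npm1 with 0.34 (adjusted p = 0.540) and Fbl with -0.03 (limma, adjusted p = 0.968). Without WT 2, 6 were higher and 2 lower, beside 26.8% and 25.3% over all genes. Without WT 1, KO 2 or KO 3, and with the replicate number as a block, 1 was higher and 1 lower, beside 7% to 9.24% and 7.44% to 11% over all genes. Apex1 lost its call without WT 1, WT 3, KO 2 or KO 3 and Tfrc without WT 1, KO 2 or KO 3, with adjusted p up to 0.160 and 0.0786 (limma).

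Myb was the 1 gene of the 10 called higher with all 6 libraries, and like Myc it was higher in each KO-labelled library than in any WT-labelled one. Myb (ENSMUSG00000019982, chr10:21124935-21160984, minus strand), the proto-oncogene of immature blood cells, reached 7.25 FPKM in WT 1, 12.7 in WT 2 and 3.06 in WT 3. Its values were 82.6 in KO 1, 81.8 in KO 2 and 52.9 in KO 3. The groups were widely apart, with KO 3 the lowest of the KO-labelled libraries and WT 2 the highest of the WT-labelled ones. Myb rose by 3.22 on the log2 scale (SE 0.48, 95% interval 2.08 to 4.36, limma, adjusted p = 0.00423), a ratio of mean FPKM of 9.44. The call held in 19 of 19 alternatives, with an adjusted p from 2.46e-05 to 0.0266, and leaving out WT 2 gave 3.64. Median-of-ratios scaling, among these, in effect repeats the main fit. All 8 immature thymocyte markers (7 of 8 when any 1 library other than WT 2 was left out) and 8 of 20 proliferation genes (1 of 20 when a KO-labelled library was left out) rose beside Myb. Over all genes 13.1% were higher, and 7% to 7.38% when a KO-labelled library was left out. The part of these genes in the rise of Myb was not tested. The antisense gene Gm26577 lies inside Myb and rose by 1.31 (limma, adjusted p = 0.00958), from at most 0.356 to at most 2.70 FPKM. As the use of strand in counting is not given, its reads and those of Myb cannot be told apart.

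The other genes of the MYB family and its known targets moved in both directions. Of 13, 11 passed the filter, 4 were higher and 5 lower, beside 13.1% and 13.3% over all genes, and the median log2 fold change was 0.65. Without WT 2 the counts were again 4 and 5, beside 26.8% and 25.3% over all genes. They were 2 and 3 without KO 2, beside 7% and 7.44%, and 1 and 4 without KO 3, beside 7.18% and 7.91%. Rag2 is also a marker of immature thymocytes here, Ccnb1 a proliferation gene, and Elane and Mpo neutrophil markers. Those higher were the recombinase gene Rag2 (3.04, limma, adjusted p = 0.00161), the cell-cycle genes Ccnb1 (1.85) and Cdc25b (1.36), and Mybl2 (1.49, adjusted p = 0.0474), the MYB relative of dividing cells. Those lower were the neutrophil granule genes Elane, Prtn3 and Mpo, which fell by 6.07, 5.85 and 5.78, and the survival genes Bcl2 and Birc3, which fell by 2.08 and 1.26. Rag2, Elane, Prtn3 and Mpo passed whichever library was left out, whereas Mybl2 and Bcl2 did not pass without WT 1, WT 3, KO 1 or KO 2, nor Mybl2 without KO 3 (limma, adjusted p up to 0.172 and 0.113). Ccnb1 lost its call without WT 1 or any KO-labelled library (adjusted p up to 0.112), Birc3 without KO 2 or KO 3 (up to 0.0574) and Cdc25b without KO 3 (0.0504). Kit, a stem cell receptor that MYB activates, was at 1.48, which did not pass (limma, adjusted p = 0.0645).

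**Figure D3:**
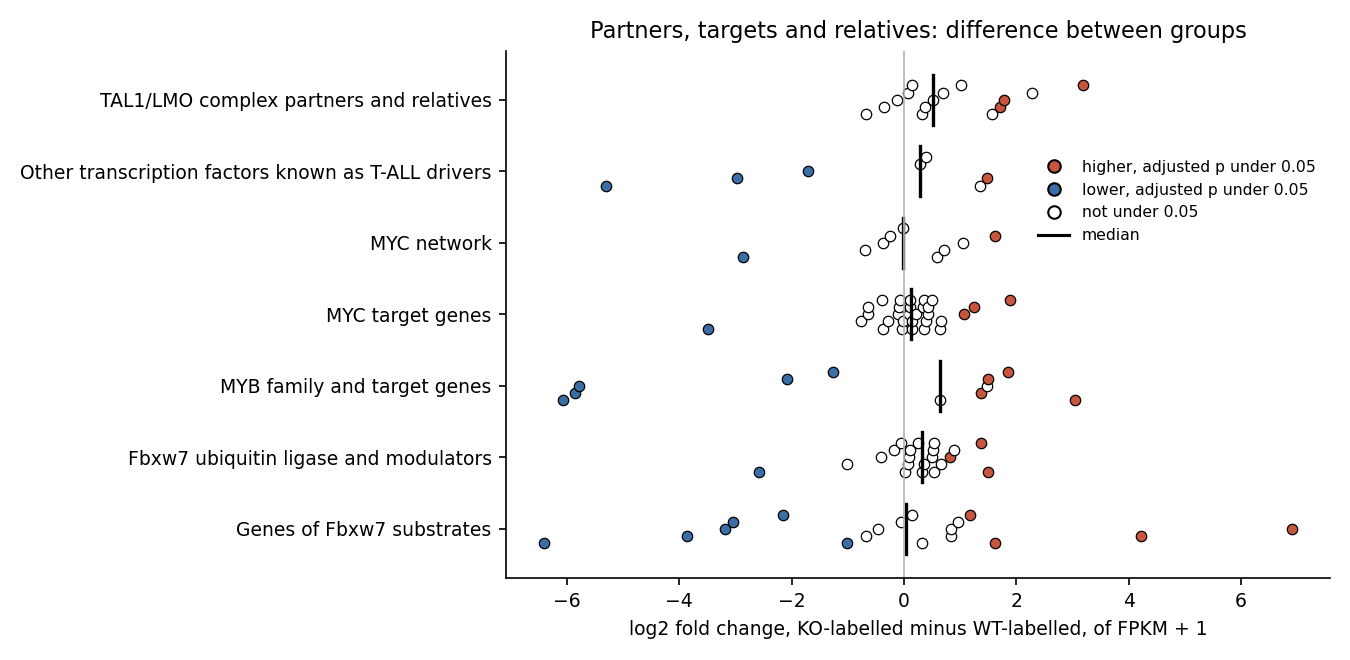
Log2 fold change of FPKM + 1, KO-labelled minus WT-labelled, of each tested gene in 7 lists of partners, targets and relatives. Red points are higher and blue points lower at an adjusted p under 0.05, open points are not under it, and vertical bars are list medians. The medians lie between -0.012 and 0.65, and most points of the MYC target and Fbxw7 ligase lists are open.

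Fbxw7, the tumor suppressor, differed little. Fbxw7 (ENSMUSG00000028086, chr3:84815268-84979198, plus strand) reached 8.89 FPKM in WT 1, 8.08 in WT 2 and 8.91 in WT 3. Its values were 7.52 in KO 1, 5.72 in KO 2 and 6.28 in KO 3. Each KO-labelled library was below each WT-labelled one, by a small step. The mean was 8.63 ± 0.476 under the WT label and 6.51 ± 0.920 under the KO label (SD, n = 3), and the log2 fold change of -0.36 (SE 0.22, 95% interval -0.90 to 0.17) did not pass (limma, adjusted p = 0.285). Array weights alone, of 19 alternatives, brought it past the threshold (-0.44, limma, adjusted p = 0.0173). After rescaling to TPM the value was 0.40, while the median of all genes was then 0.86, so relative to that median it was -0.46. A value per gene does not show mutations or isoforms of Fbxw7, and the level of the protein was not measured here.

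Of 21 genes of the SCF ligase, its modulators and related F-box genes, all 21 passed the filter, 3 were higher and 1 was lower, beside 13.1% and 13.3% over all genes (median log2 fold change 0.32). Fbxw8, a related F-box gene, fell by 2.57 (SE 0.23, limma, adjusted p = 0.000746), from 3.77 to 6.25 FPKM in the WT-labelled to at most 0.0787 in the KO-labelled libraries. It passed the filter through the WT-labelled libraries alone. Higher were Skp2 (1.37, adjusted p = 0.0109), the F-box gene whose product degrades p27, Btrc (0.82, adjusted p = 0.0349), and Gsk3a (1.49, limma, adjusted p = 0.0149), a kinase that marks substrates for FBXW7. The core scaffold gene Cul1 had a log2 fold change of -0.05 and the adaptor gene Skp1a one of 0.67, and neither passed (limma, adjusted p = 0.900 and 0.319). Without WT 2 the counts were 7 higher and 2 lower, beside 26.8% and 25.3% over all genes. Without KO 1, KO 2 or KO 3 they were 1, 0 and 1 higher and 1 lower each time, beside 7% to 7.38% and 7.44% to 8.08%. Fbxw8 passed whichever library was left out. Gsk3a lost its call whichever KO-labelled library was left out (adjusted p up to 0.0718), Btrc without each library other than WT 2 (up to 0.115) and Skp2 without KO 2 (0.0514, limma).

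Of 20 genes whose proteins FBXW7 degrades, 18 passed the filter, 4 were higher and 6 lower, beside 13.1% and 13.3% over all genes, with a median log2 fold change of 0.044. Without WT 2 the counts were 6 and 7, beside 26.8% and 25.3%. Without KO 1, KO 2 or KO 3 they were 1, 3 and 1 higher and 2 lower each time, beside 7% to 7.38% and 7.44% to 8.08%. Notch3, also an immature thymocyte marker here, rose by 6.91 (SE 0.25, limma, adjusted p = 0.000223), with an FPKM of 109 to 162 under the KO label and at most 0.116 under the WT label. It passed the filter through the KO-labelled libraries alone. Notch1, the main oncogene of T-ALL, rose by 4.21 (SE 0.84, adjusted p = 0.0126, limma), with 18.9 FPKM in WT 1, 1.26 in WT 2 and 16.9 in WT 3, and 139.96 to 211 under the KO label. The sterol regulators Srebf1 and Srebf2 rose by 1.17 and 1.62. Klf2, a factor of quiescent T cells, fell by 6.41 (SE 0.45, limma, adjusted p = 0.00034), and Jun by 3.86. The myeloid factors Cebpa and Cebpd fell by 3.04 and 3.19, Notch2 by 2.16 and the survival gene Mcl1 by 1.01. Notch3, Klf2 and Jun passed whichever library was left out. Notch1 did not pass without KO 1 or KO 3 (limma, adjusted p up to 0.0577), nor Srebf1 without WT 1, KO 1 or KO 3 (up to 0.0939). Srebf2, Cebpa, Cebpd, Notch2 and Mcl1 lost their calls whichever KO-labelled library was left out (up to 0.0658, 0.0611, 0.0586, 0.0677 and 0.181), and Mcl1 also without WT 1.

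In the order of mean FPKM among the WT-labelled libraries, Lyl1 (45.1) and Myc (42.9) came first, followed by Lmo2 (16.6), Fbxw7 (8.63), Myb (7.68), Lmo1 (6.26), Tal1 (2.11) and Mycn (0.0609). Of these neighbours, Myc and Lmo2, Lmo2 and Fbxw7, and Tal1 and Mycn had ranges that did not overlap, and the others overlapped. Without WT 2, which set the place of Lyl1, the order was Myc (41.8), Lmo2 (12.5053), Lyl1 (12.4966), Fbxw7 (8.90), Myb (5.16), Lmo1 (2.90), Tal1 (0.975) and Mycn (0.0785). In those 2 libraries Myc and Lmo2, Fbxw7 and Myb, and Tal1 and Mycn had ranges that did not overlap. In the KO-labelled libraries the order was Myc (89.8), Myb (72.4), Fbxw7 (6.51), Lmo1 (5.81), Lyl1 (5.24), Lmo2 (0.187), Mycn (0.0297) and Tal1 (0.0274). There the ranges of Myc and Myb, of Fbxw7 and Lmo1, of Lmo2 and Mycn, and of Mycn and Tal1 overlapped, and the rest did not. Myb thus stood between Fbxw7 and Lmo1 under the WT label and between Myc and Fbxw7 under the KO label.

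Each gene tested had others with a like profile over the 6 libraries, which are given as a description: the libraries of a group and WT 2 shape all such profiles. The highest Pearson correlations of log2(FPKM + 1) among 10387 protein-coding genes were with Rab11a for Lyl1 (0.9999), Cd24a for Lmo1 (0.986), Arfrp1 for Lmo2 (0.999), Gbp3 for Myc (0.974), Mapkap1 for Myb (0.994) and Ptk2b for Fbxw7 (0.991). Next came Atp6v0b and Scp2 for Lyl1, Msrb2 and Psmd11 for Lmo1, Plekhg5 and Nsmf for Lmo2, Ube2cbp for Myc, Spdl1 and Sft2d3 for Myb, and Tmco4 and Furin for Fbxw7. A correlation of at least 0.95 was reached by 635 genes with Lmo2, 303 with Myb, 252 with Lyl1, 53 with Fbxw7, 16 with Lmo1 and 11 with Myc.

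Markers of other cell types moved with the groups, and their part in the results above was not tested. Over all genes, 13.1% were called higher and 13.3% lower with all 6 libraries, and 26.8% and 25.3% without WT 2. T-cell markers were present in all libraries: the summed FPKM of the 10 genes was 1004 to 1921 under the WT label and 1095 to 1330.04 under the KO label, and 1 (Cd4) was higher and 1 (Cd5) lower, with 3 and 3 called without WT 2 and Cd5 not called without WT 3, KO 2 or KO 3. All 8 markers of immature thymocytes rose, of which Dntt lost its call when a library other than WT 2 was left out (limma, adjusted p up to 0.0988), with a summed FPKM of 8.61 to 39.4 under the WT label and 959 to 1118 under the KO label, and Ptcra was at 0 reads in each WT-labelled library. All 12 neutrophil markers fell, with a sum of 6912 to 95600.5 under the WT label and 94.3 to 292 under the KO label. Of the others, 5 of 7 tested monocyte and macrophage markers, 5 of 5 NK cell markers and 3 of 5 mast cell and basophil markers fell. The 5 NK cell markers passed the filter through the WT-labelled libraries alone. Klrk1, Klre1, Klrb1c and Eomes among them can also be expressed by T cells, and which cells held them was not tested. Ncr1, also of this list, was under the filter, with 0.884 to 6.95 FPKM under the WT label and at most 0.139 under the KO label. Leaving out 1 library gave 3 to 6 monocyte and macrophage, 4 to 5 NK cell and 1 to 5 mast cell and basophil markers. The neutrophil markers gave 12 of 12, and all these counts stood beside 7.44% to 25.3% lower over all genes. The sums of the monocyte and macrophage, NK cell, and mast cell and basophil lists were 592 to 4995, 86.3 to 195 and 112 to 4119 under the WT label. Under the KO label they were 16.0 to 29.3, 0.467 to 1.53 and 3.32 to 21.5. Gzmb, 1 of the 3 mast cell and basophil markers called lower, gave 20.2 FPKM of the highest KO-labelled sum, that of KO 1.

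**Figure D4:**
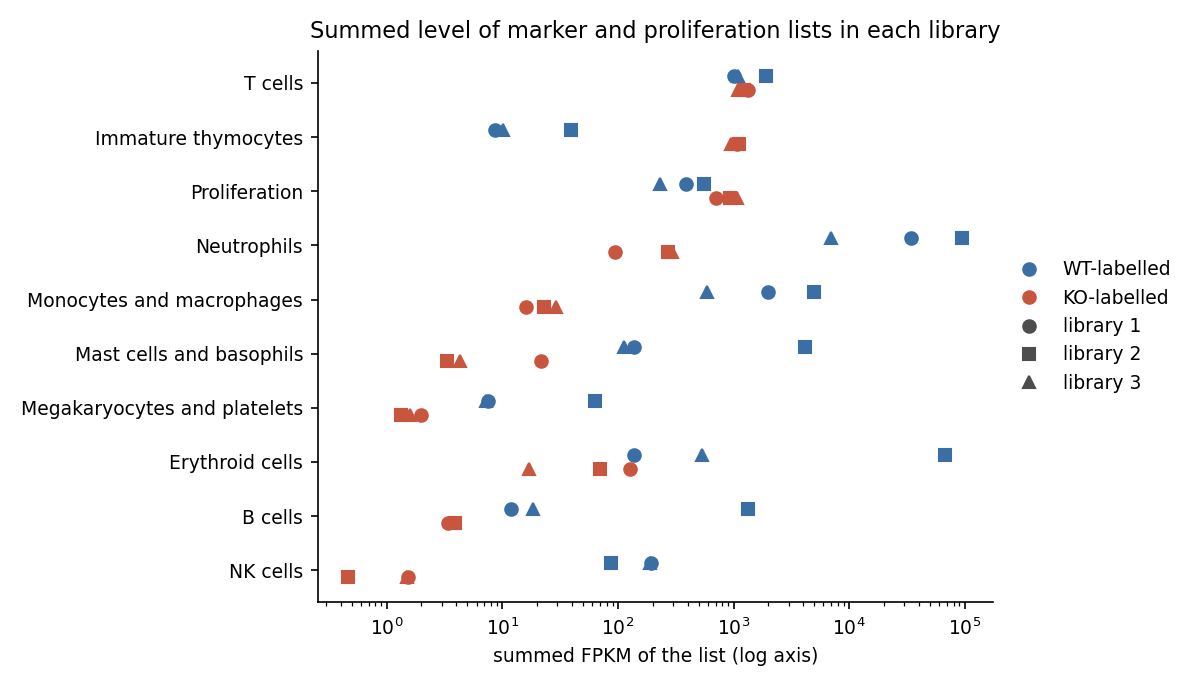
Summed FPKM (log axis) of marker lists and of proliferation genes in each library. Colour gives the label and shape the library number. The immature thymocyte and neutrophil sums part the labels, and WT 2 has by far the highest erythroid, B-cell and mast cell and basophil sums, at 68116, 1338 and 4119.

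Markers of erythroid cells, megakaryocytes and mast cells, in which Tal1 and Lmo2 are normally at work, had their highest sums in WT 2. The erythroid sum was 68116 in WT 2, compared with 139 and 533 in WT 1 and WT 3 and 16.9 to 127 in the KO-labelled libraries. The sum of megakaryocyte and platelet markers was 62.9 in WT 2, 7.59 and 7.19 in WT 1 and WT 3, and 1.32 to 1.96 in the KO-labelled libraries, with Gp1bb at 0 in all. Mast cell and basophil markers reached 4119 in WT 2, with 137 and 112 in WT 1 and WT 3. Gzmb, which cytotoxic lymphocytes also express, gave 50.5 and 79.9 FPKM of the sums in WT 1 and WT 3. Cpa3, Ms4a2 and Fcer1a of this list were at 0.550 to 3.46 in WT 1 and WT 3 and at 15.3 to 279 in WT 2. B-cell markers summed to 1338 in WT 2, 12.0 and 18.4 in WT 1 and WT 3, and 3.42 to 3.90 in the KO-labelled libraries. By limma, 0 of 8 erythroid, 0 of 3 megakaryocyte, 0 of 5 B-cell and 0 of 1 stem and progenitor markers passed, beside 26.4% of all genes. At an unadjusted p under 0.05 these counts were 4, 2, 2 and 1, beside 37.5% of all genes. With voom on the recovered reads they were 0, 2, 0 and 0, beside 25.3%. Without WT 2, 1 erythroid and 1 B-cell marker were higher and 3 erythroid, 2 megakaryocyte and 3 B-cell markers lower, beside 26.8% and 25.3% of all genes. Stem and progenitor sums were 1.74 to 20.6 and 3.35 to 8.54 under the WT and KO labels, and the 1 endothelial marker tested, Pecam1, which blood cells also express, rose by 1.16, a call lost when a library other than WT 2 was left out. WT 2 was also the highest library for Tal1, Lyl1, Lmo1 and Lmo2, and Lmo2 passed the test without WT 2 as well.

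Proliferation genes stood beside Myb and Myc. Their summed FPKM was 231 to 559.6 under the WT label and 710.02 to 1074 under the KO label. Of 20 genes, 8 were higher and 0 lower (limma), beside 13.1% and 13.3% over all genes, with a median log2 fold change of 1.49. There were 17 and 0 at an unadjusted p under 0.05, beside 19.4% and 18.1%, and 8 and 0 by voom, beside 12.1% and 13.2%. Without WT 2 there were 19 and 0, beside 26.8% and 25.3%. Without KO 1, KO 2 or KO 3 only Kif11 was called (1 and 0 each time), beside 7% to 7.38% and 7.44% to 8.08%. Kif11, a motor protein of the mitotic spindle, rose by 2.29, and Top2a and Bub1 by 2.02 and 1.80 with all 6 libraries. Their part in the levels of Myb and Myc was not tested.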

How the data were processed

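BM cells were profiled by RNA-seq in 6 libraries, 3 per genotype label. The deposited FPKM table gives each gene per library beside its position and the length that entered the FPKM. Per the submitters' processing notes, HISAT2 2.0.5, featureCounts 1.5.0-p3 and GRCm38 (mm10) were used. How the authors scaled the FPKM between libraries, and strand use, are not given in the sources used here. By median-of-ratios the deposited FPKM were already level between libraries, with a factor of 1.0188 in each. The study fitted a count model; because the deposited unit is FPKM, limma on a log scale took its place.

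FPKM times gene length came in whole steps for 100% of values (within 0.01 reads), which gave the reads per gene. Depth was 13015823 to 18235095 reads, and a gene with 0 reads could still have up to 3. Intervals and floors cover counting error only. A pseudocount of 1 was added before log2, which understates the change of low genes. Genes at 1 FPKM or more in at least 3 libraries, 13393 in all, were fitted with limma 3.58.1 (lmFit, eBayes with trend, two-sided) in R 4.3.3, with Benjamini-Hochberg adjustment at 0.05. Permuting 3 against 3 libraries exactly cannot go below p = 0.1, so that test was not used. Read ratios are relative to the FPKM size, the size by which the deposited FPKM divide, and have exact conditional binomial intervals (SciPy 1.17.1).

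The 10 genes and all lists were chosen with earlier results of these data known, and the lists come from general knowledge. They are the TAL1 and LMO partners, other T-ALL transcription factors, the MYC network, MYC targets, MYB family and targets, the Fbxw7 ligase, Fbxw7 substrates, proliferation, and markers of T cells, immature thymocytes, erythroid cells, megakaryocytes, stem and progenitor cells, mast cells and basophils, B cells, neutrophils, monocytes and macrophages, endothelial cells and NK cells. Named were the 10 genes, Phf6, up to 4 tested genes per list with the smallest p and any that state its direction, and the 3 most correlated genes of each, of which 1 is not reported here. Genes named beyond this rule, such as list members that did not pass and overlapping or neighbouring genes, were chosen after their values were seen. The erythroid gene Ahsp was not matched and not analysed here. Promoter windows are RefSeq sequences on GRCm38.p6, the build of the files. Alternatives were other pseudocounts (0.1 and 0.5), filters, scalings (median-of-ratios, quantile, TPM), eBayes without trend, array weights, voom, the replicate number as a block and leaving out each library. Median-of-ratios scaling in effect repeats the main fit, as its factor was the same in all libraries, and adds no separate check.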

Additional observations from a re-analysis of the deposited data

How the results depend on the processing

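Over all genes, 3539 were called (1754 higher, 1785 lower). This became 1837 with a mean FPKM of at least 5 (fewer genes tested), 8461 with array weights, and, with voom on genes of at least 10 reads in 3 libraries and without WT 2 (chosen after seeing the data), 8101. Leaving out 1 library gave 1934 to 6967 genes, the highest without WT 2, and 2 to 3 of the T-ALL genes. Of the T-ALL genes, 2 of 6 were called with all libraries, 5 of 6 with array weights, and 4 of 7 with that voom fit without WT 2. Tal1 was among the last, having met the filter through the WT-labelled libraries alone. The cause of these shifts was not tested. Rescaling to TPM moved the split of calls to 2279 higher and 1081 lower and the median of all genes to 0.86. Signs were followed for 75 genes: the T-ALL genes tested, Phf6 and up to 4 tested genes per list. Genes named outside this set were not part of it. Among the 75, signs turned, always for genes not called, after rescaling to TPM for Fbxw7 (0.40), Phf6 (0.69), Mlxip (0.12) and Gp1ba (0.091). They also turned for Vpreb3 with array weights (0.63) and in the voom fit without WT 2 (1.34). Leaving out 1 library gave -0.40 to 0.99 for Lmo1, -0.37 to 0.10 for Phf6 and -3.20 to 0.59 for Vpreb3. None of the 52 called genes among these 75 turned its sign in the alternatives run (0 of 52), and 35 kept their call in all of them.

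Replicate numbers did not pair the libraries: the deviations of same-numbered libraries correlated at 0.0954, 0.105 and -0.153, and not every library correlated best with its own number. With the replicate number as a block 2676 genes were called, and Myb and Lmo2 still passed. Depth limited Tal1 under the KO label, and Mycn, Tlx1 and Tlx3 in all libraries.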

Other observations

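Genes next to the T-ALL genes on the chromosome were read as well, chosen by position after the values of the T-ALL genes were seen. Stil, a centriole gene 13230 bases from Tal1 and its fusion partner in human T-ALL, rose by 2.27 (limma, adjusted p = 0.00493), with 9.56 to 12.0 FPKM under the KO label and 0.690 to 2.76 under the WT label, whereas Tal1 itself was at 0.0142 to 0.0435 under the KO label. On its other side Pdzk1ip1 reached 11.8 FPKM in WT 2 and was at 0 under the KO label. Ahi1, 44506 bases from Myb, rose by 2.10 (limma, adjusted p = 0.00163), while Hbs1l, 134995 bases away on the other side, was at 0.18 (adjusted p = 0.594). Tmem154, 110693 bases from Fbxw7, fell by 1.93 (limma, adjusted p = 0.0155), and Gatb on the far side was at 0.24 (adjusted p = 0.605). Caprin1 and Fbxo3, which flank Lmo2, were at 0.69 and 0.48 and did not pass (limma, adjusted p = 0.129 and 0.241). Trmt1, beside Lyl1, was at -0.23 (limma, adjusted p = 0.582). The protein-coding genes nearest to Myc, A1bg and Gsdmc, were listed at 0 in all 6 libraries.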
